A study of Rattus norvegicus with 32 samples.

Results

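Iron uptake, iron storage and oxygen carriage were followed in the gastrocnemius of the rat, a mostly fast muscle of the calf, through 6 genes that an earlier look at these data had chosen by name: Tfrc, Fth1, Aco1, Ireb2, Mb and Hbb. All 6 were present among the 12901 genes of the deposited tables, and all 6 passed the filter on low counts that left 11594 genes for testing. The libraries, made from whole-muscle RNA, read transcripts at their 3′ end, so transcript length does not enter the counts. Male rats aged 20 weeks, fed chow per the series title, gave 4 groups: 7 control libraries at room temperature (control_RT), 7 control libraries after 2 weeks at 4 °C (control_4C), 9 UCP1 knockout libraries at room temperature (KO_RT) and 9 UCP1 knockout libraries after the same cold (KO_4C). UCP1 is the proton channel through which brown fat makes heat, and the design asks how muscle differs after prolonged cold with and without it. The labels call the first genotype control or wild type and the second UCP1 KO, and give neither the strain, the allele nor the way the gene was removed. The labels speak of 7 wild-type and 9 knockout animals sampled before and after cold, and do not say whether a warm and a cold library came from separate animals, so p-values measure the spread between these samples. Libraries of KO_RT are named by the number of their table column (KO8 to KO17). The columns KO8 and KO9 match the title of a sample and the description of another, so only their group is used.

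Muscle takes up iron when transferrin binds the transferrin receptor (Tfrc) and the complex is internalised. Iron that is not used is stored in ferritin, whose heavy chain (Fth1) oxidises the metal on entry. In mammalian cells the RNA-binding proteins encoded by Aco1 (IRP1, a cytosolic aconitase when it holds an iron-sulphur cluster) and Ireb2 (IRP2, degraded when iron is plentiful) stabilise the Tfrc transcript and block translation of ferritin when iron is scarce. In striated muscle the haem iron of myoglobin (Mb) holds oxygen inside the fibre. Hbb encodes a beta chain of haemoglobin, and its transcript was meant to serve as a sign of blood in the sample.

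Sequences upstream of the genes were taken from RefSeq (build GRCr8, which is not the build of the counts). An entry was found for 5 of the 6 genes, all but Fth1, and for the 5 other globin genes of the table. The stretch before the start of Tfrc is shown because Tfrc carried the clearest difference with cold, and the last 110 bases before the start of 3 beta-globin genes are shown because their counts went apart. Capitals in Tfrc mark ACGTG, which is the core of the hypoxia response element. They also mark TGACGT, the core of the cyclic AMP response element. In the globin genes capitals mark ACACCC, found in the CACCC box of globin promoters. They also mark CCAAT, as in the box of that name. The last motif is ATAAA, as in the globin TATA box. Both strands were searched, so the first capitals of the second run in Hbb are the CCAAT box read on the other strand. All are written 5′ to 3′ on the strand of the gene, which is the minus strand in each case.
Tfrc, chr11:81690319-81690568: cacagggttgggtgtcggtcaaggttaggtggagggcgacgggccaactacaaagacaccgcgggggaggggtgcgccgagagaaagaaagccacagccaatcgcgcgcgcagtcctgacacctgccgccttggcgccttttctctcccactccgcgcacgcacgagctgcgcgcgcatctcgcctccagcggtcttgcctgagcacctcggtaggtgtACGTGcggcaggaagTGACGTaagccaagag
Hbb, chr1:167663722-167663831: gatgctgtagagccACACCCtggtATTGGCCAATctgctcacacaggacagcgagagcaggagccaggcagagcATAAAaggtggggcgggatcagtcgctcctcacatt
LOC689064 (Hbb-bs in RefSeq), chr1:167631631-167631740: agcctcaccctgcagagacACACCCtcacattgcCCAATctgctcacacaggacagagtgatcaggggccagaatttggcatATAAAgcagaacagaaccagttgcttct
LOC100134871 (Hbbl1 in RefSeq), chr1:167650236-167650345: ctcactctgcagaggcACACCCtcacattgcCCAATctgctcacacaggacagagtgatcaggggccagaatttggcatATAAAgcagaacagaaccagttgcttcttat
Over the 250 bases before the start of 33469 RefSeq genes, the hypoxia core occurred in 16.6%, the cyclic AMP core in 6.95%, the CACCC core in 13.8%, the CCAAT box in 34.0% and the TATA core in 39.3%. The upstream stretch of Hbb was 61.5% identical to that of LOC689064 and 60.9% to that of LOC100134871, whereas the latter pair were 93.3% identical. The CCAAT box and the CACCC core also occur in the Tfrc stretch, where they are not capitalised, and the Sp1-type box GGGCGG, present before 30.5% of genes, occurs before Hbb and is not capitalised. A match of letters is a description and not a binding site.

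The transferrin receptor transcript was less abundant in cold muscle of either genotype. In counts scaled to library size (CPM), Tfrc (ENSRNOG00000001766) lay between 106 and 253 in control_RT with a median of 174, and between 49.9 and 128 in control_4C with a median of 84.9. The groups overlapped in part, since control_4C replicate 1 at 128 exceeded control_RT replicates 2 and 3 at 106 and 124, but all 7 cold libraries stood below the warm mean. In knockout muscle Tfrc lay between 131 and 306 at room temperature with a median of 188, and between 66.0 and 95.7 at 4 °C with a median of 83.0, without overlap. KO_4C had the narrowest spread of the 4 groups, with a mean of 82.7 ± 9.34 CPM (SD, n = 9). The other means were 83.9 ± 25.1 for control_4C and 173 ± 54.1 for control_RT (n = 7 each), and 197 ± 56.1 for KO_RT (n = 9). The log2 difference of cold minus warm was -1.05 ± 0.19 (SE) in control rats, a 2.07-fold lower level, and -1.25 ± 0.17 in knockout rats, a 2.38-fold lower level. Genotypes were close to each other within a temperature, with log2 differences of knockout minus control of 0.19 ± 0.18 at room temperature and -0.02 ± 0.18 at 4 °C. The cold difference in knockout rats minus that in control rats was -0.21 ± 0.25.

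**Figure D1:**
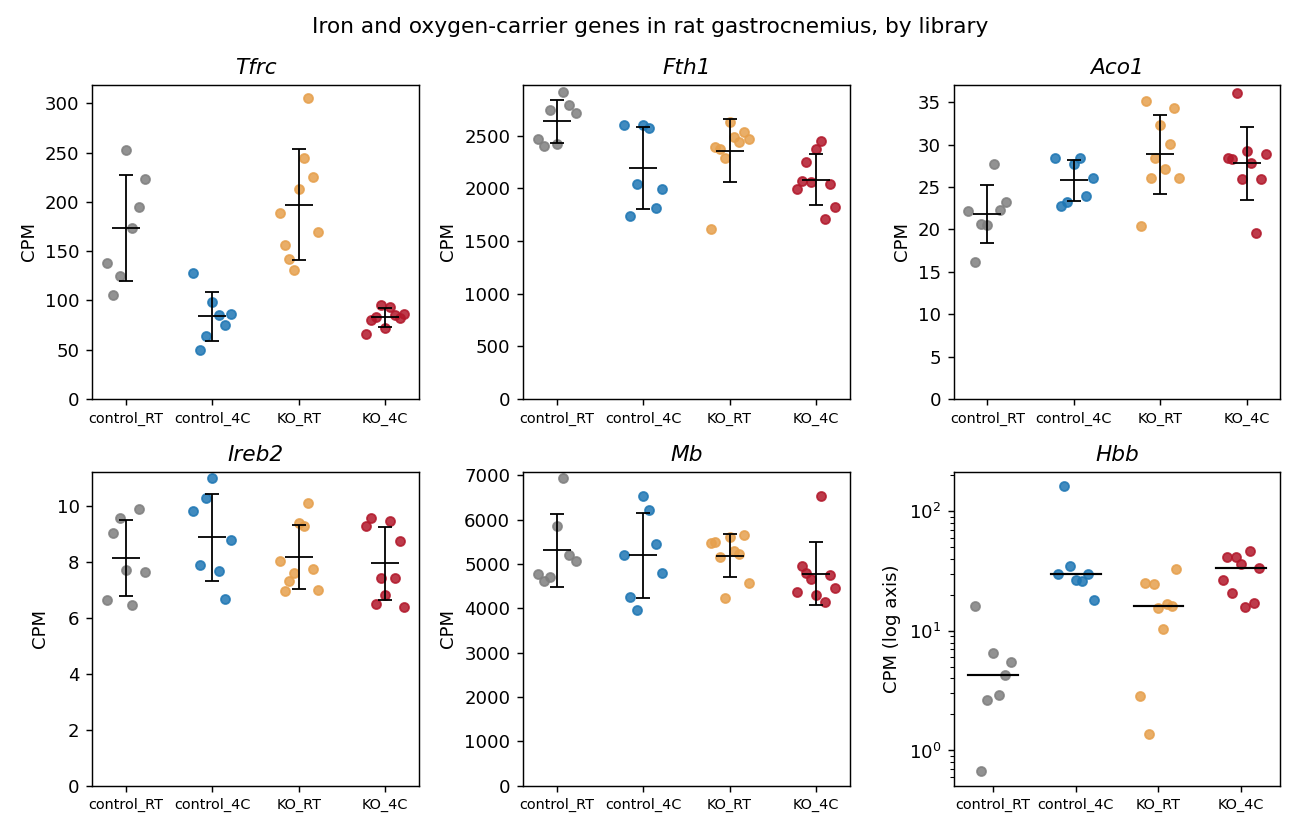
Each point is 1 library, with CPM on the vertical axis (linear from 0, logarithmic for Hbb) and the 4 groups on the horizontal axis; bars are mean ± SD, and for Hbb the line is the median. Tfrc lies between 49.9 and 128 CPM in the cold libraries and between 106 and 306 in the warm ones, while the ranges of Mb and Ireb2 overlap in all groups.

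These values of Tfrc, like those of the other genes chosen by name, are given without a p, because the genes were picked with differences between these groups already in view. For orientation only, 2 of the 6 genes, Tfrc and Hbb, passed an adjusted p of 0.05 for cold in control rats, where 20.7% of all tested genes did so (12.4% higher and 8.28% lower). In knockout rats 1 of 6 passed, Tfrc, against 13.8% of all genes (7.49% higher and 6.28% lower). For knockout against control at room temperature 1 of 6 passed, Aco1, against 2.61% (2.35% higher and 0.259% lower), and Aco1 passed in 7 of 11 alternatives. At 4 °C edgeR called 0 of 6 (0 at an unadjusted p under 0.05 and 0 with DESeq2) against 0.0518% of all genes (0.0345% higher and 0.0173% lower). For the interaction it called 0 of 6 (1 at an unadjusted p under 0.05 and 0 with DESeq2) against 0.0259% (0.00863% higher and 0.0173% lower).

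The libraries themselves stood apart in ways that touch several of these genes. Totals ran from 7.28e+06 to 2.58e+07 counts. The 3 libraries highest in summed markers of intestinal epithelium were control_4C replicates 3 and 6 and control_RT replicate 4 (1244, 1049 and 957 CPM). The 9 KO_4C libraries lay between 238 and 352. Over 12 tested intestinal markers the median log2 difference of knockout minus control at 4 °C was -1.03, with 0 called, against 0.0518% of all genes. The first principal component, with 21.7% of the variance, was lowest in KO_RT KO8, control_RT replicate 2, KO_RT KO10 and control_RT replicate 3 (-65.6 to -41.3). It lay between -32.8 and -12.2 in the other 5 control_RT libraries and between -4.93 and 14.6 in the other 7 KO_RT libraries. Those 7 thus lay above every control_RT library. In the cold libraries it lay between 9.49 and 33.2. Without those 4 libraries Tfrc averaged 197 ± 44.4 CPM in control_RT (SD, n = 5) and 207 ± 59.7 in KO_RT (n = 7), and the cold differences were log2 -1.24 and -1.32. Markers of slow fibres were higher after cold in 9 of 10 cases in each genotype. Macrophage markers were higher in 5 of 11 in control rats and 6 of 11 in knockout rats. Of all genes 12.4% and 7.49% were higher in these comparisons. Markers of fast fibres were lower in 6 of 10 and 5 of 10, beside 8.28% and 6.28% of all genes. The part of these fibre and cell types in the differences was not tested. In whole muscle, fewer cells of a type and less RNA per cell cannot be told apart.

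Ferritin heavy chain differed far less. Fth1 (ENSRNOG00000022619) ranged from 2403 to 2919 CPM in control_RT (median 2713), from 1737 to 2607 in control_4C (median 2045), from 1617 to 2635 in KO_RT (median 2444) and from 1708 to 2447 in KO_4C (median 2058). Cold and warm groups overlapped in both genotypes, although all 7 control_4C libraries stood below the control_RT mean. The log2 difference of cold minus warm was -0.26 ± 0.10 in control rats and -0.18 ± 0.09 in knockout rats. Without the 4 libraries lowest on the first component it was -0.29 in control rats and -0.24 in knockout rats. The deposited table pairs this row with an Entrez identifier that RefSeq lists as the pseudogene Fth1-ps5, so reads of ferritin copies may be shared between rows and the value of Fth1 is uncertain to that extent.

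The transcripts of the iron-regulatory proteins differed little with temperature. Ireb2 (ENSRNOG00000013271) averaged 8.13 ± 1.37 CPM warm and 8.87 ± 1.56 cold in control rats (SD, n = 7 each). In knockout rats it averaged 8.15 ± 1.14 warm and 7.95 ± 1.30 cold (n = 9 each). All 4 groups overlapped, and its log2 differences ran from -0.16 for the interaction to 0.12 for cold in control rats, with standard errors of 0.12 to 0.18. Aco1 (ENSRNOG00000005849) was lowest in control_RT, where it ranged from 16.2 to 27.7 CPM with a median of 22.1. Its medians in control_4C, KO_RT and KO_4C were 26.0, 28.5 and 28.3 CPM, with ranges of 22.8 to 28.5, 20.4 to 35.2 and 19.6 to 36.1. The log2 difference of knockout minus control at room temperature was 0.41 ± 0.11, with 5 of 9 KO_RT libraries above every control_RT library. The same difference at 4 °C was 0.11 ± 0.11, and the cold differences were 0.24 ± 0.12 in control rats and -0.06 ± 0.10 in knockout rats.

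**Figure D2:**
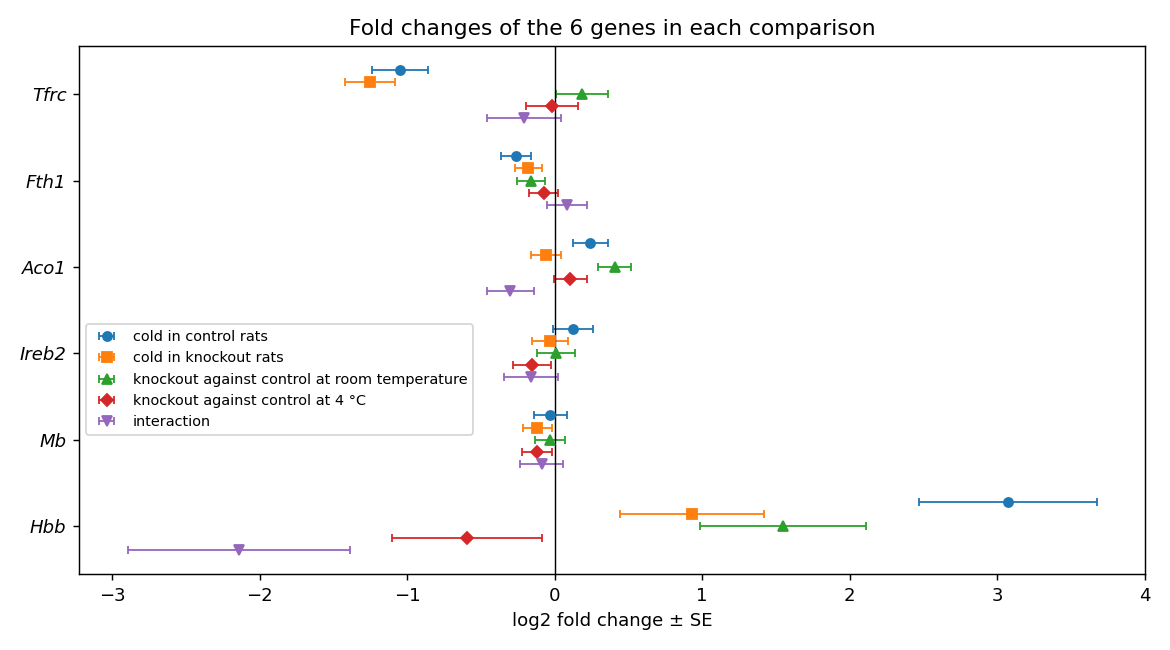
The horizontal axis gives the log2 fold change of each gene with its standard error, and the symbols give the 5 comparisons; the interaction subtracts the cold difference of control rats from the one in knockout rats. Tfrc lies near -1 for cold in both genotypes, Hbb lies at 3.07 for cold in control rats alone, and Fth1, Aco1, Ireb2 and Mb lie within 0.5 of 0 throughout.

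The myoglobin transcript differed little between the temperatures, while markers of slow fibres, in which it is abundant, were higher in the cold. Mb (ENSRNOG00000004583) ranged from 4614 to 6931 CPM in control_RT (median 5062), from 3953 to 6530 in control_4C (median 5202), from 4240 to 5660 in KO_RT (median 5292) and from 4151 to 6537 in KO_4C (median 4671). All groups overlapped. The log2 difference of cold minus warm was -0.03 ± 0.11 in control rats and -0.12 ± 0.10 in knockout rats. Over the 10 slow-fibre markers the median log2 difference was 0.94 in control rats and 0.78 in knockout rats, beside medians over all genes of 0.03 and 0.01. Their summed level ranged from 7030 to 13236 CPM in control_RT and from 13417 to 22842 in control_4C, without overlap, and from 6827 to 16100 in KO_RT and 11302 to 22982 in KO_4C.

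Hbb followed the other globin transcripts unevenly from library to library, so it is not read here by itself as the amount of blood. Hbb (ENSRNOG00000058105) ranged from 0.668 to 16.2 CPM in control_RT (median 4.32), from 18.1 to 163 in control_4C (median 29.8), from 1.36 to 33.1 in KO_RT (median 16.3) and from 15.9992 to 46.4 in KO_4C (median 33.6). All control_4C libraries stood above all control_RT libraries, with a log2 difference of 3.07 ± 0.60 (8.42-fold). Without control_4C replicate 2, at 163 CPM, it was 2.30 ± 0.52, and with the other globins as a covariate it was 2.09. The knockout groups overlapped, with a log2 difference of 0.93 ± 0.49 (1.91-fold), which was 0.16 ± 0.45 with the other globins as a covariate. The interaction of Hbb was -2.14 ± 0.75, or -1.37 ± 0.66 without control_4C replicate 2, and did not pass the threshold in either fit. Knockout minus control at room temperature was 1.55 ± 0.56 and did not pass it either. These calls are for orientation only, since Hbb was among the genes picked with the groups in view. The table holds 5 other globin rows: 2 rows named Hba-a2 and 1 named Hba-a3 for alpha chains, and LOC689064 and LOC100134871, which it describes as beta-globins. These 5 were singled out after their values were seen, and as close relatives they may share reads. Their summed level ranged from 405 to 1432 CPM in control_RT (median 699), 718 to 6536 in control_4C (median 1030), 402 to 1376 in KO_RT (median 604) and 899 to 2116 in KO_4C (median 1491). It was 1.87-fold higher after cold in control rats, with a two-sided exact permutation p of 0.0472 (n = 7 and 7, adjusted p = 0.118 over 5 tests). Without control_4C replicate 2, at 6536 CPM, the difference was 1.42-fold (exact permutation p = 0.0950, adjusted p = 0.158). In knockout rats it was 2.00-fold (exact permutation p = 0.00156, n = 9 and 9, adjusted p = 0.00782). Between genotypes it differed 1.03-fold at room temperature and 1.10-fold at 4 °C (exact permutation adjusted p = 0.906 for each).

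Hbb made up a varying share of the counts of the 6 globin rows. In control rats the share averaged 0.767% ± 0.510 warm and 2.75% ± 0.651 cold (SD, n = 7 each). In knockout rats it averaged 2.27% ± 1.184 warm and 2.17% ± 0.804 cold (n = 9 each). It was lowest in control_RT replicate 2, at 0.0852% (95% Wilson interval 0.0331 to 0.219), and in KO_RT KO10, at 0.0989% (0.0552 to 0.177), both among the 4 libraries lowest on the first principal component. KO10 had 22 counts of Hbb beside 22220 of the other globins, the largest summed globin level of its group. The other members of that set, control_RT replicate 3 and KO_RT KO8, had shares of 0.374% and 0.609%. In the remaining libraries of these groups the share was 0.523% to 1.40% (control_RT, n = 5) and 2.26% to 3.72% (KO_RT, n = 7). The intervals were computed on counts divided by 2, since every deposited count was even, and cover counting error only.

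**Figure D3:**
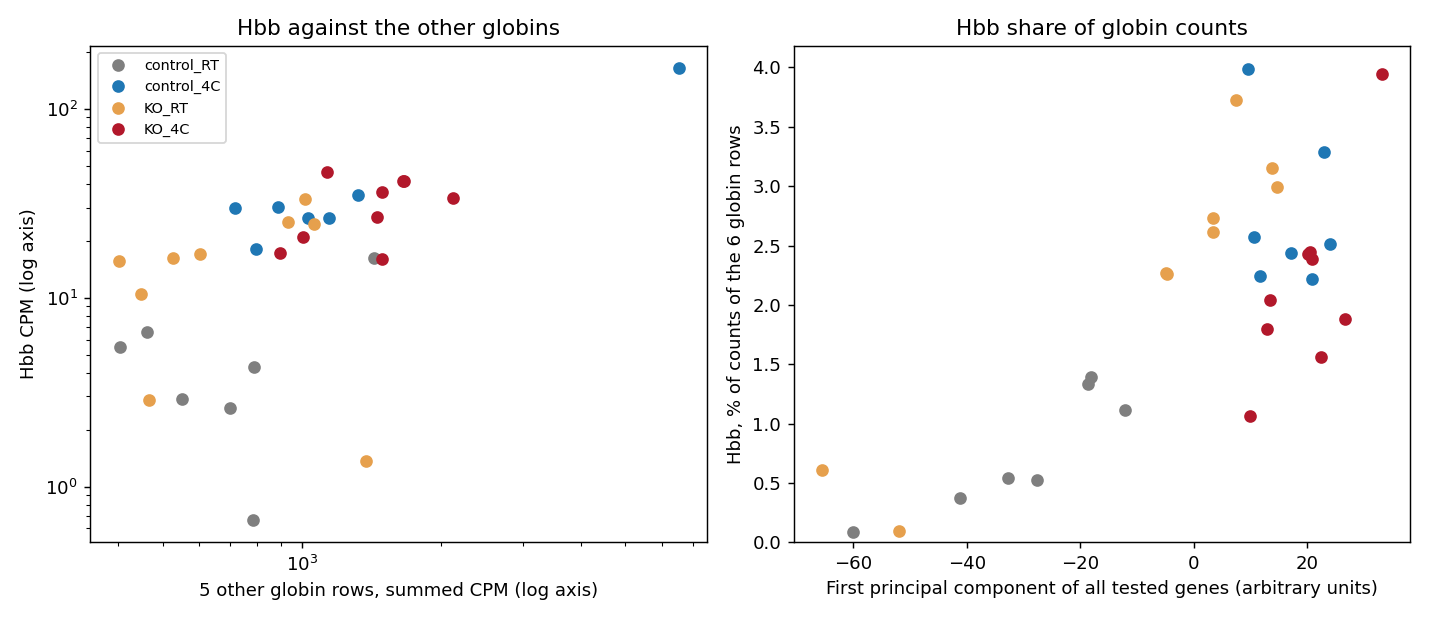
Left, Hbb against the summed CPM of the 5 other globin rows for each of the 32 libraries, both axes logarithmic; right, the percentage of globin counts that came from Hbb against the first principal component of all tested genes (arbitrary units). Among the libraries at the left of the component, KO10 and control_RT replicate 2 have Hbb shares of 0.0989% and 0.0852%, while cold libraries lie between 1.06% and 3.99%.

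Within groups the relation of Hbb to the other globins was uneven. Pearson's r of log2 levels was 0.22 in control_RT (exact permutation p = 0.637, n = 7, rho = 0.00, p = 1), 0.96 in control_4C (exact permutation p = 0.0288, n = 7, rho = 0.57, p = 0.20), -0.05 in KO_RT (exact permutation p = 0.885, n = 9, rho = 0.28, p = 0.463) and 0.45 in KO_4C (exact permutation p = 0.222, n = 9, rho = 0.42, p = 0.270). Without the 2 libraries farthest from the median these r were -0.60, 0.75, 0.66 and -0.08, and without control_4C replicate 2 alone that of control_4C was 0.44 (exact permutation p = 0.40, n = 6). After adjustment over 24 relations of the 6 genes with the other globins, 0 passed and 3 had an unadjusted exact permutation p under 0.05. The other 2 of these 3 lay in KO_RT. There r was -0.75 for Tfrc (exact permutation p = 0.0245, n = 9, rho = -0.72, p = 0.0369, adjusted p = 0.318 for r and 0.403 for rho) and -0.55 without the 2 farthest libraries. For Ireb2 it was -0.71 (exact permutation p = 0.0398, n = 9, rho = -0.68, p = 0.0503, adjusted p = 0.318 and 0.403) and -0.71 without them. With the summed other globins as a covariate, an alternative added after the data were seen, the cold difference of Tfrc was log2 -0.74 in control rats and -0.88 in knockout rats.

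Among the 6 genes, 60 pairings within groups were examined, a measure that the choice of the genes had not used. After adjustment 0 passed, and 7 had an unadjusted exact permutation p under 0.05. Of these 7, 3 were Fth1 with Aco1. Their r was 0.76 in control_RT (exact permutation p = 0.0252, n = 7, rho = 0.82, p = 0.0341), 0.92 in control_4C (exact permutation p = 0.0228, n = 7, rho = 0.79, p = 0.0480) and 0.78 in KO_RT (exact permutation p = 0.0237, n = 9, rho = 0.52, p = 0.162), each with an adjusted p of 0.256 for r and 0.566 for rho. In KO_4C it was 0.62 (exact permutation p = 0.0734, n = 9, rho = 0.38, p = 0.3125, adjusted p = 0.415 and 0.605). Without the 2 libraries farthest from the median of Fth1, r was 0.56, 0.86 and 0.20, so in KO_RT it rested on those libraries, KO8 among them at 1617 CPM. In control_4C Tfrc went with Aco1 at r = 0.88 (exact permutation p = 0.00258, n = 7, rho = 0.89, p = 0.0123, adjusted p = 0.155 and 0.566), and at 0.86 without the 2 farthest libraries. The others were Tfrc with Fth1 in control_4C (r = 0.80, exact permutation p = 0.0256, n = 7, rho = 0.79, p = 0.0480, adjusted p = 0.256 and 0.566; 0.62 without the 2 farthest) and Tfrc with Ireb2 in KO_RT (r = 0.82, exact permutation p = 0.00724, n = 9, rho = 0.77, p = 0.0214, adjusted p = 0.217 and 0.566; 0.78 without them). The last was Mb with Hbb in KO_4C (r = -0.63, exact permutation p = 0.0404, n = 9, rho = -0.52, p = 0.162, adjusted p = 0.346 and 0.566), at -0.12 without the 2 farthest libraries, on which it rested.

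Over all 32 libraries the genes whose log2 CPM followed Tfrc most closely were Mlf1 (r = 0.92), Thra, a thyroid hormone receptor (0.86), and Carnmt1, which methylates carnosine (0.85). For Hbb they were Slc20a2, a phosphate transporter (0.92), Ccng2, a cyclin (0.92), and Akirin2, a nuclear protein (0.91). These r describe libraries that share group differences and the first component, among 6952 candidate genes of at least 5 CPM. Placeholder symbols were left out of the candidates, so LOC689064 and LOC100134871 could not appear among the genes nearest to Hbb. The Hba-a2 and Hba-a3 rows were not among the 3 nearest. For Fth1 the nearest were Rangrf (0.82), Dusp22 (0.81) and Lgalsl (0.79), and for Aco1 Dpf2 (0.76), Eloc (0.74) and Tacc2 (0.74). Mb was followed by Dyrk1b (0.70), Fndc5 (0.68) and Bnip1 (0.67). Ireb2 had no close follower, with Washc5 at 0.59, Tceanc2 at 0.52 and Egln3 at 0.46.

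Other genes of iron and haem handling, listed from general knowledge of the pathway, were tested in the same fit. Of 83 symbols 71 were in the table and 70 were tested. After cold in control rats 11 of the 70 rose and 5 fell (22.9%, against 20.7% of all genes), and in knockout rats 8 rose and 4 fell (17.1%, against 13.8%). The median log2 changes of these 70 were 0.08 and 0.06, beside 0.03 and 0.01 over all genes. The shares were thus near those of all genes. Of the genes called, 6 were called in both genotypes, 3 higher and 3 lower in both. The same overlap was not counted over all genes, so it is not read as a trait of this list.

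Genes that release iron from haem and from ferritin were among those that rose in both genotypes. Hmox1, the haem oxygenase that frees iron from haem, ranged from 10.2 to 20.2 CPM in control_RT and from 17.5 to 25.0 in control_4C, and rose by log2 0.77 ± 0.18 (adjusted p = 0.00218). In knockout rats it ranged from 4.88 to 16.97 CPM warm and from 17.7 to 35.0 cold, without overlap, and rose by 1.11 ± 0.16 (adjusted p = 6.49e-06). Cd163, the macrophage receptor that takes up haemoglobin, rose by 1.04 ± 0.20 and 1.13 ± 0.17 in the same comparisons (adjusted p = 0.000312 and 1.91e-05), and its part in the Hmox1 change was not tested. Ncoa4, the receptor that carries ferritin to the lysosome, rose from 91.3 ± 29.6 to 141 ± 12.9 CPM in control rats (SD, n = 7 each, log2 0.62 ± 0.17, adjusted p = 0.0102) and from 105 ± 28.9 to 147 ± 12.8 in knockout rats (n = 9 each, log2 0.48 ± 0.15, adjusted p = 0.0329). In the haem list 2 of 12 genes rose in control rats (16.7%, against 20.7% of all genes). In knockout rats 2 of 12 rose (16.7%, against 13.8%), so the list was near the share of all genes. Besides Hmox1 they were Alas1, the first enzyme of haem synthesis outside red cells, in control rats (0.53 ± 0.19, adjusted p = 0.0431) and Blvrb, a biliverdin reductase, in knockout rats (0.54 ± 0.15, adjusted p = 0.0120).

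The list of ferritin, iron chaperones and turnover of the iron-regulatory proteins held 7 tested genes. In control rats 3 rose and 1 fell (57.1%, against 20.7% of all genes). In knockout rats 1 rose and 1 fell (28.6%, against 13.8%). Skp1, part of the ubiquitin ligase that removes IRP2, rose by 0.29 ± 0.09 in control rats (adjusted p = 0.0232), and Herc2, a ubiquitin ligase that acts on the IRP2-degrading factor Fbxl5, fell by 0.32 ± 0.08 in knockout rats (adjusted p = 0.00641) and by 0.27 ± 0.09 in control rats (adjusted p = 0.0338). Ftl1, the ferritin light chain, rose by 1.86 ± 0.44 in control rats (adjusted p = 0.00267) but from only 0.923 ± 0.826 to 3.39 ± 0.787 CPM (SD, n = 7 each), and copies of this gene may take its reads. Of 14 genes of iron uptake and export 1 passed in control rats (7.14%, against 20.7% of all genes). It was Heph, a ferroxidase of iron export, which rose from 6.38 ± 3.19 to 12.0 ± 4.26 CPM (log2 0.91 ± 0.24, adjusted p = 0.00698). Summed intestinal markers ran from 284 to 957 CPM in control_RT and from 283 to 1244 in control_4C. Their relation to Heph was not tested. In knockout rats none of the 14 passed with edgeR, against 13.8% of all genes.

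Mitochondrial iron and iron-sulphur cluster genes moved in both directions, with 4 higher and 3 lower of 23 in control rats (30.4%, against 20.7% of all genes). In knockout rats 3 were higher and 2 lower (21.7%, against 13.8%). Ciapin1, a cluster-binding protein of the cytosol, rose in both (0.45 ± 0.13, adjusted p = 0.0157, and 0.44 ± 0.12, adjusted p = 0.0103). Glrx5, a cluster carrier named here because it was called in both genotypes, fell by 0.39 ± 0.13 (adjusted p = 0.0357) and 0.37 ± 0.12 (adjusted p = 0.0326). Ciao1, of cytosolic cluster assembly, rose by 1.13 ± 0.27 in control rats (adjusted p = 0.00280). In knockout rats Iscu, the scaffold on which clusters are built, rose by 0.40 ± 0.10 (adjusted p = 0.00713) and Slc25a28, a mitochondrial iron importer, fell by 0.63 ± 0.14 (adjusted p = 0.00167). Of 14 other globin and hypoxia-related genes, 1 rose and 1 fell in control rats (14.3%, against 20.7% of all genes). In knockout rats 2 rose and 1 fell (21.4%, against 13.8%). Egln1, an oxygen-sensing prolyl hydroxylase, fell in both (by 0.83 ± 0.25, adjusted p = 0.0175, and by 0.84 ± 0.23, adjusted p = 0.00947). Bnip3, a mitophagy receptor induced by hypoxia, rose by 1.58 ± 0.32 in control rats (adjusted p = 0.000771). Cygb, cytoglobin, and Ndrg1 rose in knockout rats (0.38 ± 0.13, adjusted p = 0.0374, and 0.42 ± 0.11, adjusted p = 0.00906). For genes called in 1 genotype alone, a difference between the genotypes was looked for in the interaction. There edgeR called 0 of the 70 (11 at an unadjusted p under 0.05 and 1 with DESeq2), against 0.0259% of all genes. With so few calls over all genes, the 0 does not show that the genotypes were alike.

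**Figure D4:**
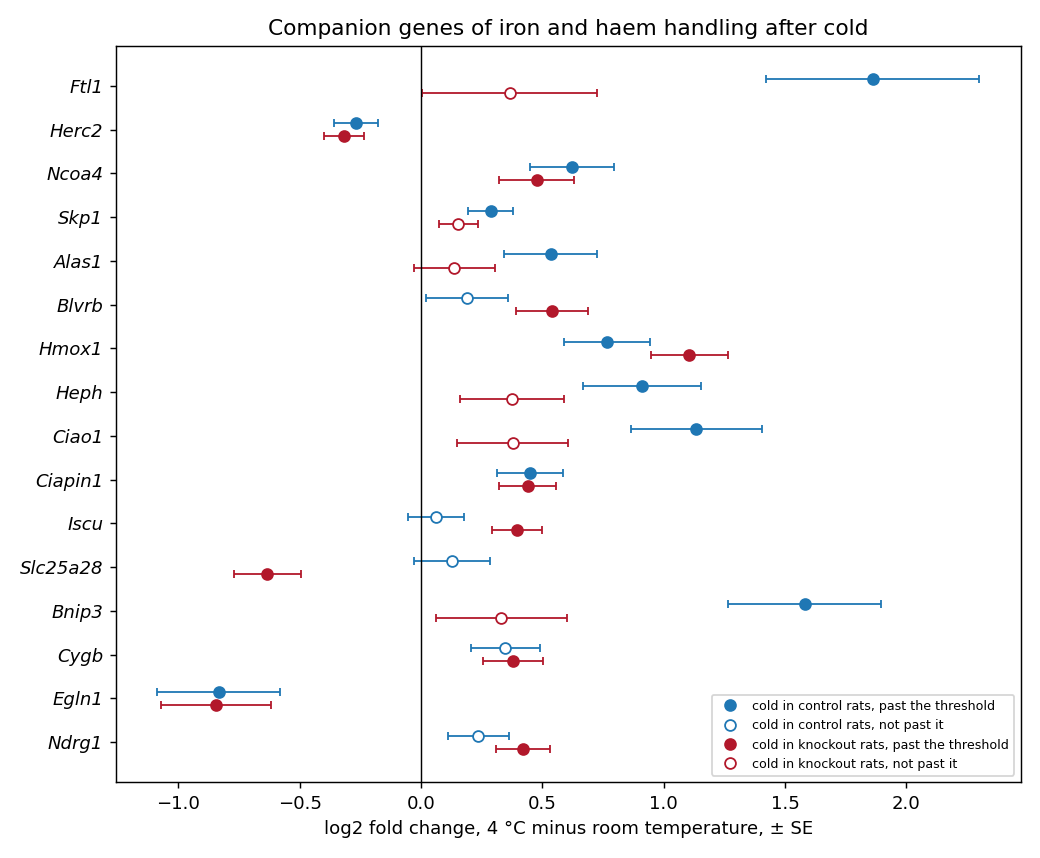
Log2 fold change of cold minus warm with its standard error for the companion genes named for either genotype; blue is control rats, red is knockout rats, and filled points passed the adjusted p of 0.05. Hmox1, Ncoa4 and Ciapin1 are filled to the right and Herc2 and Egln1 to the left in both genotypes.

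With the Hbb level as a covariate 0 of the 70 companion genes and 160 of all genes passed for cold in control rats, against 16 and 2399 without it, and Ncoa4 and Alas1 changed sign (log2 -0.07 and -0.13). In knockout rats 11 of the 70 passed with it, against 12 without. Hbb lay without overlap between control_RT and control_4C, so in control rats this covariate and the cold cannot be told apart. The range of the Tfrc difference over all 11 alternatives, Hbb as a covariate included, was -1.24 to -0.74 in control rats and -1.32 to -0.88 in knockout rats.

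Between genotypes at room temperature 4 of the 70 companion genes were higher and 1 lower in knockout rats (7.14%, against 2.61% of all genes). Cisd2, an iron-sulphur protein of the endoplasmic reticulum and mitochondria, was higher by 0.45 ± 0.10 (adjusted p = 0.0107), Slc25a28 by 0.66 ± 0.15 (adjusted p = 0.0147), Ciao1 by 1.06 ± 0.26 (adjusted p = 0.0209) and Bnip3 by 1.17 ± 0.30 (adjusted p = 0.0303). A fit of these 2 groups alone called 0 of the 70 and 0 of all genes, and leaving out the 4 libraries lowest on the first component raised the count to 8 of the 70 and 708 of all genes. At 4 °C edgeR called 0 of the 70 (6 at an unadjusted p under 0.05 and 0 with DESeq2), against 0.0518% of all genes.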

How the data were processed

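For 32 libraries the authors deposited unnormalised counts by Ensembl gene, and a signal table in which each count is scaled by its library's size factor (0.523 to 2.06). Per the labels' protocols, QuantSeq libraries were made from 500 ng of RNA and read for 50 bp. Per the submitters' processing notes, R 3.4.3, DESeq2 1.18.1 and the build Rnor_6.0 were used; no source used here names the aligner or counter. No odd count occurred. The signal table was used only for gene symbols. Testing used edgeR 4.0.16 under R 4.3.3 (TMM, filterByExpr with a minimum count of 10, robust quasi-likelihood F test over all 4 groups, Benjamini-Hochberg per comparison at 0.05); the SE of a log2 change is its size over the square root of F. CPM use the TMM-scaled totals; log2 CPM for relations and the principal component used a prior count of 2. The scripts were tested on simulated data. The smallest chi-square per degree of freedom between libraries of a group was 11.4, so none was a duplicate.

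The 6 genes, the lists and the alternatives were chosen with earlier results of these data known. Named companions were up to 3 per list and comparison of smallest p past the threshold, and followers the 3 genes of highest r. Pairing by replicate number was checked by correlation, which showed none and cannot exclude it. KO8 and KO9 carry no number and stayed out of that check and the block. Alternatives were RLE factors, no filter, DESeq2 1.42.0, the compared groups alone, a replicate block, counts divided by 2, libraries left out, and Hbb or the other globins as a covariate. Some genes that the rule would name are counted in their lists but not reported here.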

Additional observations from a re-analysis of the deposited data

Results flagged for a closer look

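Among 100 sets of values, each the libraries of 1 group for 1 gene or for the summed other globins, 12 held a library farther from its neighbours than Dixon's 95% limit allows; chance flags about 1 in 20 groups. No explanation of these was tested.

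KO_RT KO8, one of the libraries lowest on the first principal component, stood alone in 4 genes. It had 1617 CPM of Fth1 beside 2291 in the next library, 908 of Skp1 beside 1246, 44.7 of Ciapin1 beside 66.7, and, on the high side, 16.3 of Egln1 beside 9.66.

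Control_4C replicate 2 was highest in its group for Hbb, at 163 CPM beside 34.8, and for the summed other globins, at 6536 CPM beside 1322. Control_RT replicate 1 was highest in its group for Hbb at 16.2 CPM beside 6.56, for the summed other globins at 1432 CPM beside 789, and for Hmox1 at 20.2 CPM beside 13.7.

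The remaining values were Mb in KO_4C replicate 6, at 6537 CPM beside 4961, Heph in KO_4C replicate 7, at 15.6 beside 9.69, and Hmox1 in control_4C replicate 5, low at 17.5 beside 22.0.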

How the results depend on the processing

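The cold difference of Tfrc, given without a test, moved by more than the SD between replicates under 1 alternative, in knockout rats with the other globins as a covariate (log2 -0.88). With Hbb as a covariate 160 genes and 0 companions passed for cold in control rats and 1045 genes for cold in knockout rats, and Ncoa4 and Alas1 reversed in control rats (-0.071 and -0.13). With the other globins as a covariate 7 companions passed for cold in knockout rats. For genotype at room temperature (303 genes, 5 companions) the counts were 577 genes with DESeq2, 0 and 0 companions in the compared groups alone, 212 and 4 with the replicate block, which leaves out KO8 and KO9, 708 and 8 without the 4 libraries lowest on the first component, and 2 and 0 with Hbb as a covariate. At 4 °C (6 genes) they were 121 with RLE factors, 3 without the filter, 436 with DESeq2, 0 in the compared groups alone, 0 with the replicate block, 81 with counts divided by 2, 0 without the 3 libraries highest in intestinal transcripts, 2 without control_4C replicate 2, 209 with Hbb and 3 with the other globins as a covariate. For the interaction (3 genes) they were 1 without the filter, 112 with DESeq2 (1 companion), 0 with the replicate block, 288 without those 4 libraries (3 companions), 0 without control_4C replicate 2, and 1 with either covariate. The causes were not tested.

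Same-numbered libraries correlated at -0.22 to 0.19 in control rats and at -0.0019 to 0.15 in knockout rats. Of these, 1 of 7 and 2 of 7 correlated best with their own number. Correlations over all genes in 7 pairs per genotype thus showed no pairing by replicate number, and cannot exclude it. Of 319 alternative values of the 6 genes the other 318 moved by less than that SD. Calls, given for orientation only, did change. Fth1 for cold in control rats passed in 4 of 11 alternatives and not in the reported fit, and Aco1 at room temperature passed in 7 of 11. Of 275 alternative values of the named companions 238 kept their call, 35 lost it and 2 reversed. Of the 35, 16 came with Hbb as a covariate, as did the 2 reversals. The Hbb difference between genotypes at 4 °C, -0.59, was 0.18 without control_4C replicate 2. Ftl1, Alas2, Hba-a3 and Hbb in the warm controls rest on few counts.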

Other observations

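Of 9 tested erythroid markers, a list without Hbb, 5 were higher and 1 lower after cold in control rats (20.7% of all genes passed) and 2 were higher in knockout rats (13.8% of all genes). Of the 9, 3 are the Hba-a2 and Hba-a3 rows described above, and 2 of the 5 higher are the Hba-a2 rows. Without control_4C replicate 2, an alternative added after the data were seen, 2 were higher and 1 lower in control rats and 6 higher and 1 lower in knockout rats. Alas2, which starts haem synthesis in red-cell precursors, rose from 0.584 ± 0.670 to 2.65 ± 3.17 CPM in control rats (SD, n = 7 each, edgeR log2 2.14 ± 0.56, adjusted p = 0.00629), and without that library its difference was 1.30 ± 0.50 (adjusted p = 0.0649). Bpgm, which makes the red-cell regulator of oxygen release, fell from 191 ± 27.9 to 116 ± 25.2 CPM in control rats (log2 -0.72 ± 0.13, adjusted p = 0.000181; -0.79 ± 0.13 without that library, adjusted p = 9.52e-05). In knockout rats its difference was -0.32 ± 0.11 (adjusted p = 0.0515). These markers were named after their values were seen.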
